A study of Homo sapiens with 4 samples.

Results

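The 92 genes described here encode splicing factors and RNA helicases, and were taken by name from 2 lists of N6-methyladenosine (m6A) peaks in lung adenocarcinoma cells. Members were all genes of either list whose symbol began with SRSF, HNRNP, SF3A, SF3B, U2AF, SNRP, PRPF, DDX or DHX, without 2 genes, HNRNPA2B1 and HNRNPC, that act as m6A readers. They made up 92 of the 7957 genes with a peak in either list. There were 9 SRSF, 18 HNRNP, 10 SF3 or U2AF, 7 SNRP, 10 PRPF, 26 DDX and 12 DHX genes. The prefixes used nothing measured, but the group was chosen with earlier results of these data known.

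The study mapped m6A by MeRIP-seq, in which RNA fragments bound by an antibody against m6A are sequenced beside the unselected input fragments. One line was A549, an established human lung adenocarcinoma line labelled cisplatin-sensitive, and the other was A549/DDP, its counterpart labelled cisplatin-resistant. Both were grown in the same serum-containing medium, and the labels give neither a cisplatin treatment at harvest nor how A549/DDP was derived. Each line gave 1 immunoprecipitated and 1 input library, 4 libraries in all, and 1 deposited peak list per line. Since each group is 1 library, nothing that differs between A549/DDP and A549 could be checked against replicates or tested, and the comparisons describe these libraries alone. The lists hold no read counts, so depth is unknown, and more methylation and more RNA of a gene cannot be told apart in whether a peak was listed.

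Splicing removes introns from precursor messenger RNA. SR proteins (SRSF genes) mostly promote the use of the exons they bind, and heterogeneous nuclear ribonucleoproteins (HNRNP genes) often repress it, besides packaging, exporting and stabilising RNA. SNRP genes encode proteins of the small nuclear ribonucleoproteins, SF3 and U2AF genes the factors that recognise the branch point and the end of the intron, and PRPF genes the factors that assemble and activate the spliceosome. DDX and DHX genes encode ATP-dependent RNA helicases, some of which drive the rearrangements of the spliceosome while others act in ribosome assembly, translation, RNA decay or innate immunity. m6A itself is deposited within a short consensus in which the core GGAC is frequent, mostly near stop codons and in long exons, and is read by proteins that affect splicing, export, translation and decay.

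Peaks that touched the 5′ untranslated region (UTR) were unevenly spread over the families and are described by gene further on, and the starts of such genes are therefore shown. Of 23 members with such a peak in either line, 22 matched a table of RefSeq gene starts (GRCh38.p14), and the first 50 transcribed bases of 7 of them (31.8%) held GGAC, searched on the transcribed strand only. The share was 21.6% over 1506 matched genes of the lists with a 5′ UTR peak and 18.9% over all 35116 starts in the table. The windows of 30 bases around these matches are printed 5′ to 3′ on the transcribed strand, with the motif in capitals. They are genomic sequence and can run into an intron. The peaks are on build hg19, and whether they cover these bases cannot be told here. A match describes the letters and shows no methylated site.
DHX36: ggcttccgggcccGGACgccatttccagcg
HNRNPAB: gcggcaccgcgcgGGACggagcttggctgt
HNRNPL: tcttttcgatccgGGACggccggtcaggct
HNRNPU: gaGGACgttgcgtgctcgctcgcgccaggc
HNRNPUL1: gtctGGACtggaacctctgggcccacgtga
SNRPA1: gcacgctgGGACgtctcgctggcgggaggc
SRSF3: ccgccatttcgtGGACgccgggtgagtgag
On GRCh38.p14 these windows lie at chr3:154324453-154324482 on the minus strand (DHX36), chr5:178204538-178204567 on the plus strand (HNRNPAB) and chr19:38852309-38852338 on the minus strand (HNRNPL). The window of HNRNPU is at chr1:244864514-244864543 on the minus strand, that of HNRNPUL1 at chr19:41262557-41262586 on the plus strand, that of SNRPA1 at chr15:101295219-101295248 on the minus strand and that of SRSF3 at chr6:36594362-36594391 on the plus strand. In HNRNPU the motif began at base 3 of the annotated start, in HNRNPUL1 at base 5, in SNRPA1 at base 9, in SRSF3 at base 13, in DHX36 and HNRNPAB at base 19, and in HNRNPL at base 23.

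The m6A peaks of these genes were largely common to both lines. Of the 92 members, 74 were listed in both lines (80.4%, exact binomial 95% interval 70.9 to 88.0), against 69.5% of all genes. A further 13 were listed in A549/DDP alone (14.1%, 7.74 to 23.0), where the share over all genes was 18.9%, and 5 in A549 alone (5.43%, 1.79 to 12.2), where it was 11.6%. Binomial intervals here cover counting error only. Both single-line intervals include the share over all genes, so neither count stands apart with all peaks kept. In A549 alone the gap was wider at other settings. With the authors' p of at most 1e-10 it was 4.35% of members against 14.2% of all genes. With equal numbers of strongest peaks it was 5.56% against 18.9%. No interval is given for these settings. When only folds of 5 or more were kept, the excess of members in both lines was small, 24 of 46 members (52.2%) against 48.9% of all genes, with 15 in A549/DDP alone (32.6%; all genes 31.0%) and 7 in A549 alone (15.2%; all genes 20.2%). By family, 9 of 10 SF3 or U2AF genes, 9 of 10 PRPF genes, 22 of 26 DDX genes, 15 of 18 HNRNP genes and 10 of 12 DHX genes were in both lists, against 5 of 9 SRSF and 4 of 7 SNRP genes. Among the 126 protein-coding genes that RefSeq now lists under these prefixes, 36 had no peak in either line. They included SRSF7, HNRNPK, SF3A3, SNRPB, PRPF3, DDX5, DDX39B and DHX9, named here after the lists were seen, and a missing peak does not separate unmethylated from weakly expressed RNA.

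**Figure D1:**
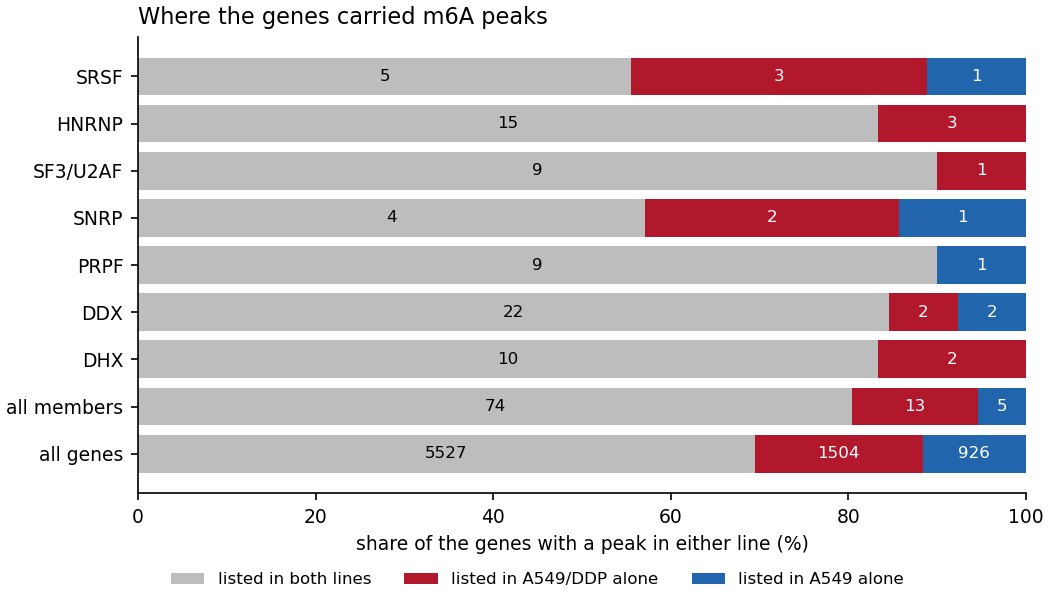
Bars give the share, in percent, of each family's genes with a peak in both lines (grey), in A549/DDP alone (red) or in A549 alone (blue), with the number of genes printed in each segment. The members reach 74 of 92 in both lines beside 5527 of 7957 for all genes, and the SRSF and SNRP bars have the largest single-line segments on few genes.

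The genes listed in A549/DDP alone mostly had weak peaks. The strength of a gene was taken as the smallest p-value the authors gave any of its peaks, placed as a percentile among the genes of the same list. Below percentile 25 of the A549/DDP list 8 of 11 members were absent from A549 (all genes, 50.8%), whereas from percentile 75 up 1 of 50 was (all genes, 1.59%). That exception was SNRPF, which encodes a protein of the Sm ring that encircles spliceosomal RNAs. Its single peak spanned coding sequence and 3′ UTR (hg19 chr12:96259152-96260004, 237 exonic bases) and had a fold of 4.65, with p = 2.51e-54 in the authors' list and percentile 86.8. Of the other single-list members the highest was SRSF2 of A549, at percentile 62.8. By steps of 25 percentiles from the weakest, 72.7%, 28.6%, 0% and 2% of A549/DDP members were absent from A549 (all genes 50.8%, 25.8%, 7.43% and 1.59%). In A549 37.5%, 7.14%, 6.25% and 0% were absent from A549/DDP (all genes 33.8%, 16.2%, 4.9% and 2.48%). These gaps went both ways. Members ranked above most genes (median percentile 79.4 and 75.5). Whether their higher share in both lines goes beyond that was not tested.

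Among the SR proteins, SRSF3, SRSF6 and SRSF12 were listed in A549/DDP alone. SRSF3, an SR protein that also serves in mRNA export, had 2 near-identical peaks across the start codon, on 150 and 151 exonic bases. Both had fold 39.9, the highest of any member in A549/DDP, and p = 6.31e-11 in the authors' list (percentile 49.4), values that 2 other genes share. SRSF6, a regulator of alternative exons, had 1 peak of 181 bases in the 3′ UTR (fold 2.92, the authors' p = 3.89e-09). SRSF12, a little studied SR protein, had 1 peak of 90 coding bases (fold 12.9, the authors' p = 0.00132). The SRSF12 values were identical to those of peaks in 114 other genes, so its fold does not describe that gene in particular.

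Of the other genes listed in A549/DDP alone, DDX58 encodes the cytosolic sensor of viral RNA now named RIGI. Its 4 overlapping peaks lay around the stop codon, and the strongest (239 bases) had fold 5.28 and p = 2.09e-09 in the authors' list, at percentile 44.1. DHX40, a helicase of poorly known function, had 3 peaks with a leading fold of 2.19 (the authors' p = 4.27e-10), and DHX15, which disassembles spliceosomes and released introns, had 1 coding peak of fold 1.84 (the authors' p = 3.89e-05). SNRPA1, a protein of the U2 particle, had 1 peak of 147 bases across the start codon (fold 3.39, the authors' p = 0.000347). HNRNPLL, known for regulating splicing in activated lymphocytes, had a 3′ UTR peak of fold 18.8 whose values were shared with 62 other genes, and 4 short 5′ UTR peaks at p = 0.000724 in the authors' list. HNRNPA1L2 and HNRNPCL1 are near-identical copies of HNRNPA1 and HNRNPC, so the assignment of their peaks is uncertain, and DDX3Y has the near-identical copy DDX3X. SF3B4 was listed only on an alternate contig, with p = 0.00479 in the authors' list, at percentile 0.0853 of its list.

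The 5 genes listed in A549 alone were led by SRSF2, an SR protein of the constitutive and alternative machinery. Its 2 overlapping peaks of 120 bases in the 3′ UTR (hg19 chr17:74730197-74730320) had folds of 2.51 and 2.58, the stronger with p = 7.94e-16 in the authors' list and percentile 62.8. SNRPA, a protein of the U1 particle, had a short 3′ UTR peak of fold 1.48 (the authors' p = 2.34e-07). DDX31 and DDX49, both nucleolar helicases, had weak 3′ UTR peaks at percentiles 18.7 and 2.72. PRPF31, a tri-snRNP factor, was listed only on an alternate contig, with fold 14.9 and p = 0.000182 in the authors' list, values that 96 other genes share.

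The members' peaks ranked high by p and low by fold. In A549/DDP the 87 listed members had 414 distinct peaks with a median p of 4.5e-24 in the authors' list, against 5.13e-08 over all 32069 peaks, and 79.7% of them (75.5 to 83.5) lay on the stronger side of the list's median. In A549 the 79 listed members had 396 peaks with a median p of 1.26e-14 against 9.12e-08 over 27319 peaks, and 71.0% (66.2 to 75.4) were on the stronger side. The median fold was nevertheless 3.11 in A549/DDP, below the 3.81 over all peaks, and 2.92 in A549, below 3.72. This did not hold for every family. In A549/DDP the medians of DDX (3.85), DHX (3.94) and SNRP peaks (4.16) were above that of all peaks, and HNRNP genes gave 157 of the 414 peaks. In A549 the median of each family was below that of all peaks. Among the members' stronger peaks alone the median fold was 3.34 against 4.35 in A549/DDP and 3.37 against 4.01 in A549. The members' peaks were also longer, with a median of 327 exonic bases against 211 in A549/DDP and 270 against 210 in A549. Of them 65.0% and 56.1% spanned more than 1 exon block, against 33.0% and 31.3%. Peaks of one gene on different transcripts overlap, so they are not independent and their intervals are too narrow.

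**Figure D2:**
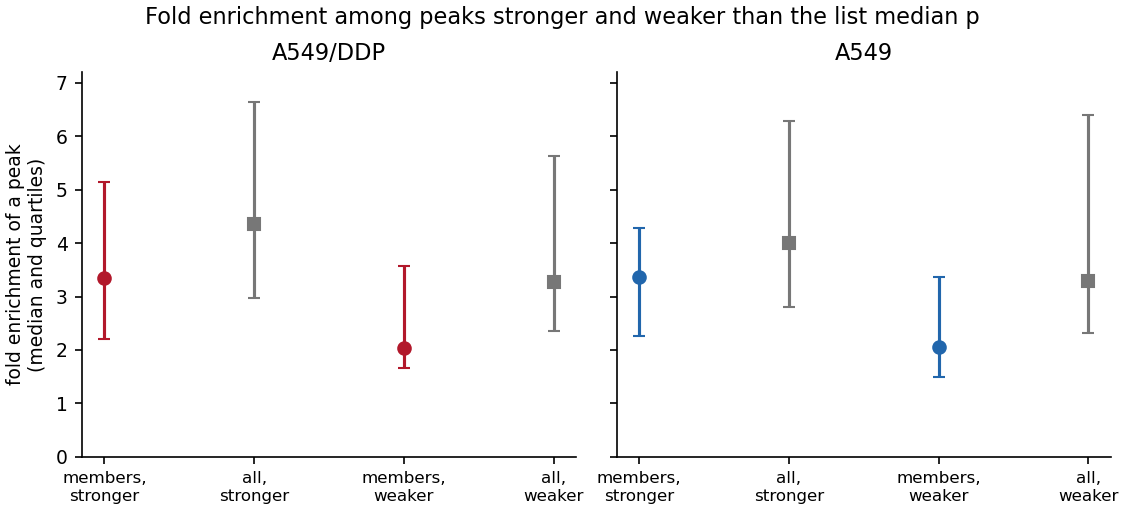
Points give the median authors' fold enrichment and bars the quartiles, for members (coloured circles) and all peaks (grey squares) of each list, split at the list's median p. The members lie lower in each class, with 3.34 beside 4.35 among the stronger peaks of A549/DDP and 3.37 beside 4.01 in A549.

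Ranked by gene on the smallest p, the HNRNP family stood highest and the DHX helicases lowest. The median percentile was 79.4 for members in A549/DDP and 75.5 in A549. It was 94.3 and 91.8 for HNRNP genes and 48.3 and 48.1 for DHX genes. By fold these 2 families stood the other way round, but neither was at an end of the order of families. In A549/DDP PRPF peaks had the lowest median fold (2.57) and SNRP peaks the highest (4.16). In A549 these were SRSF peaks (1.67) and DDX peaks (3.6). The median fold of HNRNP peaks was 2.97 in A549/DDP and 2.67 in A549, and that of DHX peaks 3.94 and 3.43. Over all peaks it was 3.81 and 3.72. In all, 28 of 87 members in A549/DDP and 20 of 79 in A549 lay above the 90th percentile. Several genes ranked far apart in the 2 lists: DDX18 was at percentile 82.7 in A549/DDP and 37.5 in A549, while U2AF1 was at 49.7 and 79.0. These genes were picked out after their values were seen.

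**Figure D3:**
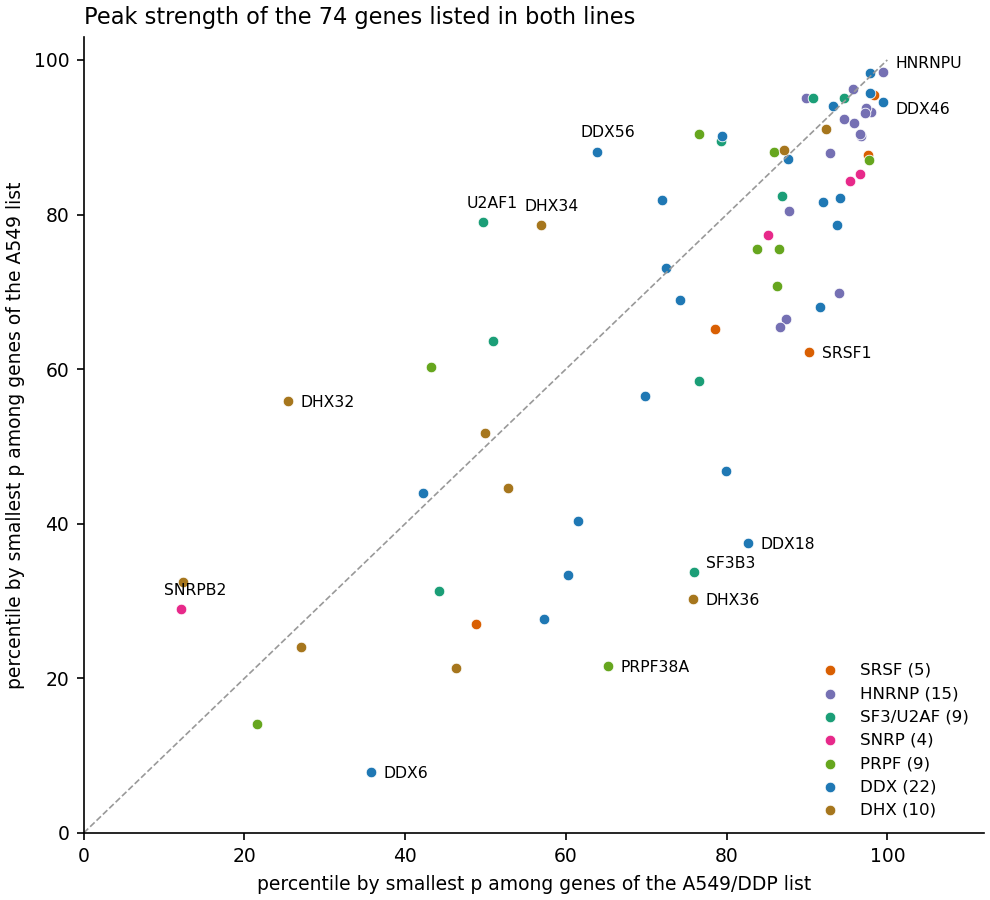
Each point is 1 of the 74 members listed in both lines, placed by its percentile of peak strength among the genes of the A549/DDP list (horizontal) and of the A549 list (vertical), coloured by family. HNRNPU and DDX46 are at the upper right in both lists, and the dashed line marks equal percentiles.

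Of the SRSF genes listed in both lines, SRSF4, an SR protein with a long arginine-serine domain, had the strongest peak. Its lead peak covered 747 coding bases in A549/DDP (fold 8.31, the authors' p = 1e-258) and 649 bases of coding sequence and 3′ UTR in A549 (fold 7.77, the authors' p = 1e-115). SRSF11, an SR-related splicing regulator, had a lead fold of 6.85 in A549/DDP and 3.68 in A549 at overlapping sites across the stop codon. SRSF1, the prototype SR protein, had a single 3′ UTR peak at overlapping positions in both lists, of 270 bases and fold 5.67 in A549/DDP and 181 bases and fold 2.92 in A549. SRSF5 had 13 distinct peaks in each list, all shared, with low lead folds of 1.78 and 1.68. SRSF9 had 1 peak across the start codon in each list, at percentile 48.8 in A549/DDP and 27.0 in A549. Folds from the 2 lists are set side by side only, since how the libraries were scaled is not known.

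HNRNPU, which binds nascent RNA and chromatin, held the strongest peaks of its family in both lists. In A549/DDP its lead peak ran over 961 bases from 5′ UTR into coding sequence (hg19 chr1:245025767-245027754, minus strand), with fold 6.90 and p listed as 0. In A549 it covered 781 coding bases with fold 6.29 and p = 1e-232 in the authors' list, all of them inside the A549/DDP peak set. HNRNPAB, an RNA-binding relative of HNRNPD, had its lead peak across the start codon in both lists, with folds 3.17 and 3.62. HNRNPD, which binds AU-rich elements and directs mRNA decay, had 8 start-codon peaks in each list, the strongest with fold 4.55 in A549/DDP and 3.45 in A549. HNRNPR, which acts in mRNA processing and transport, had its lead peak across the stop codon with folds 4.61 and 4.20.

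A further pair of HNRNP genes was picked out after their values were seen. HNRNPUL2, a relative of HNRNPU linked to the DNA damage response, had a long peak from the 5′ UTR into coding sequence in both lists, 1135 bases with fold 15.4 in A549/DDP and 1076 bases with fold 16.6 in A549. All 1076 bases were covered in both lists. HNRNPA1, an abundant repressor of splice sites, showed the reverse combination of low fold and small p: its 20 peaks in A549/DDP had folds from 1.12 to 1.84, and the lead peak (fold 1.5) had p = 6.31e-56 in the authors' list.

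Among genes of branch-point and intron-end recognition, SF3A2 and U2AF2 had the strongest peaks. SF3A2, a subunit of the U2 particle, carried a peak of 869 bases across the stop codon in A549/DDP (fold 4.61, the authors' p = 1e-106) and one of 839 bases in A549 (fold 6.05, the authors' p = 1e-105). U2AF2, which binds the polypyrimidine tract, carried a peak across its start codon of 689 bases in A549/DDP (fold 8.30) and 809 bases in A549 (fold 10.6). The whole of the A549/DDP peak was covered in A549. SF3B5, the smallest SF3B subunit, had 1 peak per list in the 3′ UTR with folds 4.45 and 3.72, and SF3A1 had coding peaks with lead folds 3.56 and 3.92. SF3B1, the branch-point subunit often mutated in cancers, ranked low, at percentile 44.2 in A549/DDP and 31.3 in A549.

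The SNRP genes listed in both lines were SNRPD1, SNRPD2, SNRPD3 and SNRPB2. The first 3 encode proteins of the Sm ring. SNRPD1 had a peak of 327 bases and fold 3.54 in A549/DDP (the authors' p = 1e-156) and 269 bases and fold 2.27 in A549 (the authors' p = 2.51e-42). SNRPD2 had a peak across the start codon with fold 7.67 in A549/DDP and 5.78 in A549, and in A549 alone a further site across its stop codon of fold 1.39 (the authors' p = 1.58e-13). SNRPD3 ranked at percentiles 85.1 and 77.3 with lead folds of 1.98 and 1.80. SNRPB2, of the U2 particle, shared no site: its single A549/DDP peak was coding and its A549 peaks were in the 3′ UTR.

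Of the PRPF genes, PRPF38B, a paralogue of the spliceosome factor PRPF38A, led with a peak of 925 bases across the stop codon and fold 12.3 in A549/DDP (the authors' p = 1e-205), and 805 bases and fold 6.19 in A549 (the authors' p = 1.58e-46). PRPF4, of the U4/U6 particle, had a 3′ UTR peak with fold 7.60 over 893 bases in A549/DDP and 13.4 over 630 bases in A549. PRPF19, the ubiquitin ligase needed for spliceosome activation, had an identical 3′ UTR peak of 390 bases in both lists, with folds 2.57 and 3.50. PRPF4B, a splicing kinase, had coding peaks of about the same extent with folds 5.21 and 4.32. PRPF8, the scaffold of the catalytic core, had only low folds around its stop codon, 1.62 and 1.67 at the lead peaks.

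The strongest DDX peaks belonged to helicases of the spliceosome. DDX46, which remodels the U2 particle at the branch point, had a peak of 840 coding bases with fold 9.03 and p listed as 0 in A549/DDP, and 806 bases with fold 3.88 in A549 (the authors' p = 3.16e-97). DDX23, which helps exchange U1 for U6 at the start of the intron, had a 3′ UTR peak of fold 7.44 in A549/DDP (the authors' p = 1e-232) and one reaching into coding sequence of fold 7.63 in A549 (the authors' p = 1e-213). DDX42, an SF3B-associated helicase, had a peak across the stop codon of 1045 bases and fold 6.16, and of 988 bases and fold 5.52. All 3 genes ranked above percentile 94 in both lists. Outside the spliceosome, DDX54, a nucleolar protein, had lead folds of 6.39 and 7.87, and DDX21, a helicase of ribosomal RNA processing, of 4.40 and 2.22 at different places in the gene. Peaks of DDX54 overlapped, on the opposite strand, peaks listed for another gene, as did those of DDX27, DHX32, DHX38 and PRPF40B. In all 10 of 414 and 11 of 396 peaks were affected.

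Among the DHX genes only 2, DHX38 and DHX8, ranked above percentile 85 in both lists, and both act in the catalytic steps of splicing. DHX38 had its lead peak across the stop codon with folds 5.28 and 5.19 (the authors' p = 1.58e-81 and 2.51e-65). DHX8, which releases the spliced mRNA, had its lead peak in the 3′ UTR with folds 6.32 and 6.71. DHX34, of nonsense-mediated decay, had 1 shared peak with folds 3.68 and 5.13, DHX33, a nucleolar helicase, a 3′ UTR peak with folds 4.02 and 5.51, and DHX30, of mitochondrial ribosome assembly, lead folds of 2.76 and 2.38 at different places.

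Peaks touching coding sequence were common in all families. They made up 86.5% of the members' peaks in A549/DDP and 82.1% in A549, against 65.2% and 64.5% over all peaks. Peaks in coding sequence only were near the share over all peaks, 38.2% against 36.7% and 39.9% against 36.3%. The gap lay more in peaks reaching from coding sequence into the 3′ UTR, 35.3% against 19.4% and 30.3% against 22.4%. Peaks in the 3′ UTR only were fewer, 11.6% against 30.3% and 16.9% against 32.9%. The members' peaks were also longer. Peaks touching the 5′ UTR made up 15.0% (11.7 to 18.8) in A549/DDP, close to the 13.6% over all peaks, and 12.9% (9.74 to 16.6) in A549, where all peaks reached 8.42%. The share was 24.2% and 24.3% for HNRNP genes but 5.15% and 6.25% for DDX genes, in A549/DDP and A549 in turn, and the intervals of these families did not overlap in either list, with overlapping peaks counted as if independent. SRSF genes had 18.5% (5 of 27 peaks, 6.30 to 38.1) and 4.17% (1 of 24 peaks, 0.105 to 21.1), and DHX genes 9.80% (3.26 to 21.4) and 4.08% (0.498 to 14), with intervals that overlapped between the lines. The share was 50% and 36.8% for SNRP genes, where all 7 such peaks in A549 and 6 of 7 in A549/DDP belonged to SNRPD2. SF3 or U2AF genes and PRPF genes had 1 such peak each per list, that of U2AF2 and that of PRPF19.

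**Figure D4:**
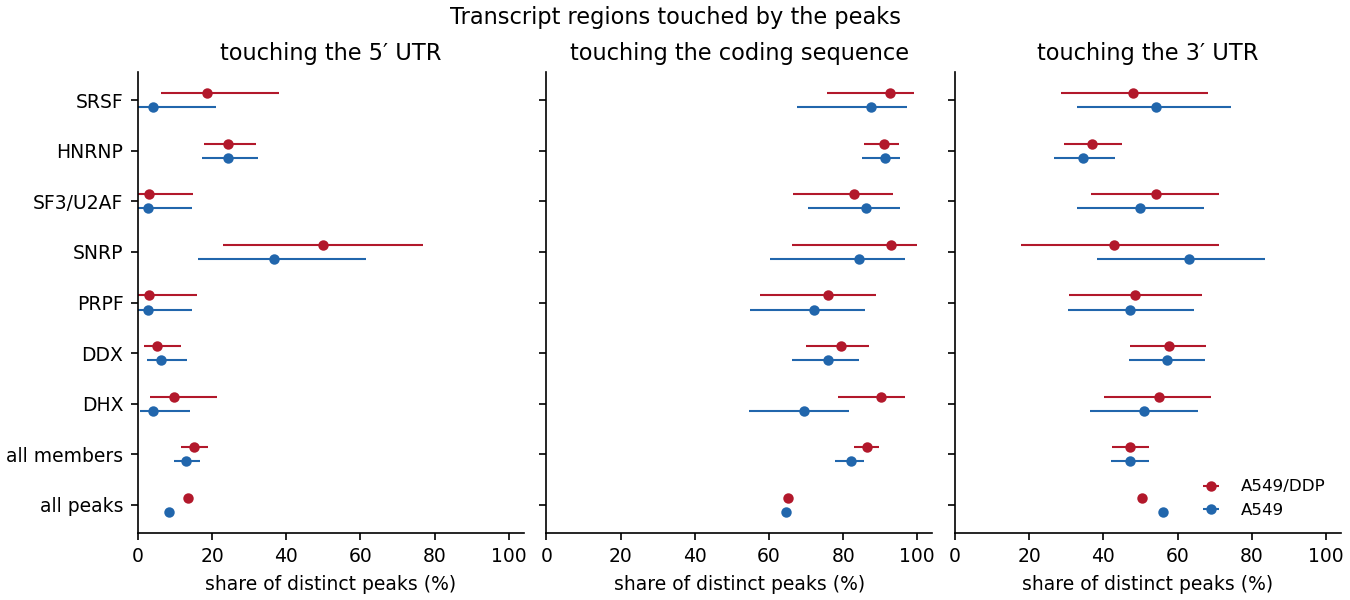
Points give the share of distinct peaks, in percent, that touch the 5′ UTR, the coding sequence or the 3′ UTR, by family, in A549/DDP (red) and A549 (blue), with exact binomial 95% intervals that treat overlapping peaks as independent. HNRNP genes lie at 24.2% and 24.3% for the 5′ UTR, DDX genes at 5.15% and 6.25%.

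By gene, 14 of the 74 members listed in both lines had a 5′ UTR peak in both: DDX24, DDX6, HNRNPA1, HNRNPAB, HNRNPD, HNRNPL, HNRNPM, HNRNPU, HNRNPUL1, HNRNPUL2, PRPF19, SNRPD2, SRSF9 and U2AF2. DDX6, which represses translation in cytoplasmic granules, had all of its 3 peaks per list within the 5′ UTR. The peaks were weak, with the gene at percentile 35.7 in A549/DDP and 7.89 in A549. The values of its lead peaks were shared with 4 other genes in A549/DDP and 29 in A549. Another 4 genes had one in A549/DDP alone, DHX36, DHX37, HNRNPA3 and SRSF4, a share of 5.41% where all genes gave 10.8%, and 2 had one in A549 alone, DDX23 and DHX38, 2.70% where all genes gave 2.03%. Counts of 4 and 2 are too few to set these shares apart. All 51 of the members' 5′ UTR peaks in A549 overlapped a peak of the other list (0 not shared, exact 95% upper bound 6.98%, all peaks 13.3%). In A549/DDP 11 of 62 did not (17.7%, 9.20 to 29.5, all peaks 42.2%). Overlapping peaks of one gene count here as if independent, so both intervals are too narrow. Of the 51, HNRNPD held 8, and HNRNPAB, HNRNPUL1 and SNRPD2 held 7 each. These values therefore do not set the members apart from all peaks.

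In SRSF4, HNRNPA3 and DHX37 the A549/DDP peaks touching the 5′ UTR included some that met no A549 peak. In SRSF4 a peak of 598 bases from 5′ UTR into coding sequence (hg19 chr1:29481334-29508410, fold 17.6, the authors' p = 1.26e-12) met 0 covered bases in A549, where both peaks lay in the last part of the gene. In HNRNPA3, a paralogue of HNRNPA1, 3 overlapping peaks at the start (hg19 chr2:178077500-178080567) also met 0 covered bases, with p from 1e-10 to 4.68e-08 in the authors' list. Of these, 2 touched the 5′ UTR, and the other, with the p of 1e-10, was labelled coding only. In DHX36, which unwinds G-quadruplexes, the A549/DDP peaks ran from the 5′ UTR over up to 690 bases with folds up to 16.1, while the A549 peaks of the same place covered at most 301 coding bases with folds up to 5.51. In DHX37, of ribosome assembly, the only 5′ UTR peak had p = 0.00174 in the authors' list. In DDX23 and DHX38 the A549 peaks with a 5′ UTR end were otherwise largely covered in A549/DDP, 390 of 418 bases in one DDX23 peak and 690 of 749 in one DHX38 peak.

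Most individual peaks had a counterpart. Sharing, meaning that at least 1 exonic base overlapped with the strand matching, held for 81.2% of the members' peaks in A549/DDP (77.1 to 84.8) and 88.1% in A549 (84.5 to 91.1). The shares not shared over all peaks were 32.8% and 22.0%. Exactly identical peaks numbered 25, 6.04% of the members' A549/DDP peaks and 6.31% of their A549 peaks. HNRNP genes reached 95.6% shared in A549 and 77.7% in A549/DDP. SNRP genes were lowest, on few peaks, at 57.9% (11 of 19, 33.5 to 79.7) and 71.4% (10 of 14, 41.9 to 91.6). In A549 5 of the SNRP peaks not shared were overlapping peaks of 1 site in SNRPD2.

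When overlapping peaks of both lists were merged into sites, the 74 genes had 155 sites. Of these 110 were in both lines (71.0%; all genes 64.6%), 25 in A549/DDP alone (16.1%; 21.5%) and 20 in A549 alone (12.9%; 13.9%). In 45 of the 74 genes every site was in both. The 6 sites of the SRSF genes listed in both lines were all in both. Of 35 HNRNP sites 9 were in A549/DDP alone and 2 in A549 alone, and of 24 DHX sites 3 and 5. No interval was computed by family, so these counts do not set a family apart from all genes. A site counted as in both when it held peaks of each list, even where parts of it were not covered by both. The SRSF4 site of 1345 bases counted so, although the A549/DDP peak at its start met no A549 peak.

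HNRNPA1 had the strongest of the single-line sites. In A549/DDP alone a site over 575 exonic bases of coding sequence and 3′ UTR (hg19 chr12:54676253-54678345) was covered by 6 peaks, the strongest with fold 1.5 and p = 6.31e-56 in the authors' list. A second 3′ UTR site of 81 bases followed (fold 1.25, the authors' p = 2e-12). The start-codon site of the gene was in both lists, with folds up to 1.67 in A549/DDP and 1.82 in A549. DDX17, a helicase and transcriptional coregulator, had a 3′ UTR site in A549/DDP alone (fold 1.68, the authors' p = 3.16e-12), and DDX52 one with fold 3.75 (the authors' p = 1e-15).

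In the opposite direction, DDX51, a helicase of ribosome assembly, had 3 3′ UTR sites in A549 alone, with folds 10.3, 7.85 and 3.54. Its neighbouring shared 3′ UTR site was 1 peak of 957 bases in A549 with fold 46.7, the highest fold of any member in either list (the authors' p = 3.16e-34), and 2 shorter peaks of 330 and 90 bases with folds 7.04 and 12.9 in A549/DDP. The coding peak of DDX51 was 479 bases in both lists, of which 449 were common. PRPF6, of the tri-snRNP, had a coding site in A549 alone with fold 3.12 (the authors' p = 2.51e-12). The genes in these site descriptions were picked out after their values were seen.

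**Figure D5:**
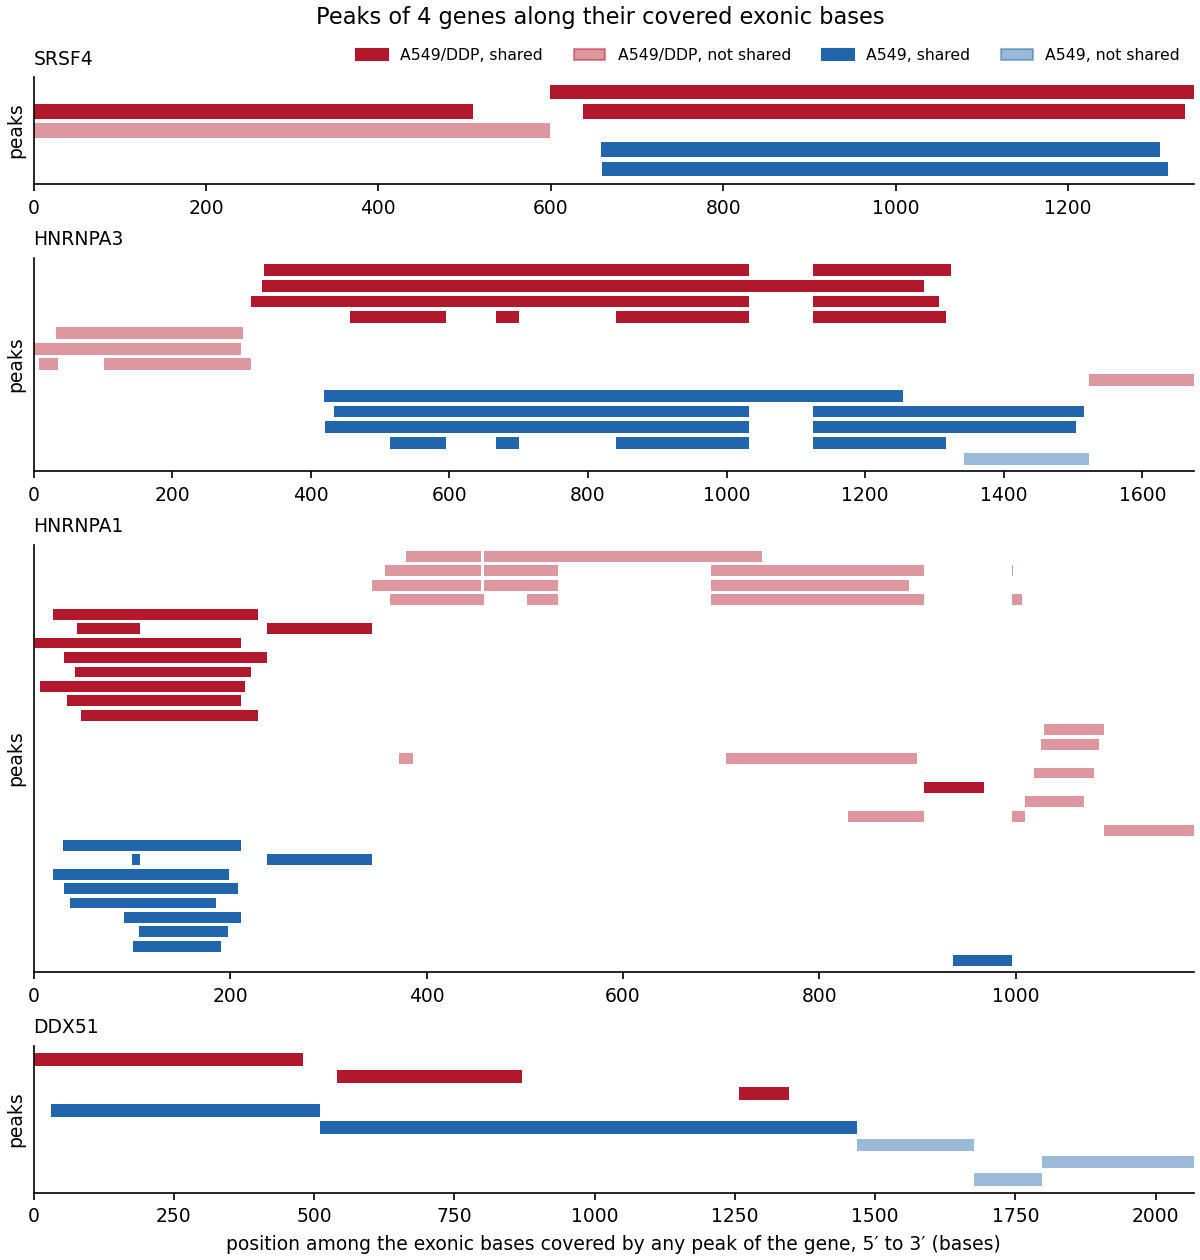
Bars show the peaks of SRSF4, HNRNPA3, HNRNPA1 and DDX51 along the exonic bases covered by any peak of the gene, joined from 5′ to 3′, in A549/DDP (red) and A549 (blue), pale where the peak overlaps none of the other list. Pale red bars lie at the start of SRSF4 and HNRNPA3 and in the later part of HNRNPA1, and pale blue bars at the end of DDX51.

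The fold differed in places between overlapping peaks listed for different transcripts of a gene. In 13 of 92 merged regions of A549/DDP with several overlapping peaks, and in 7 of 94 in A549, the highest fold was at least 2 times the lowest (14.1% and 7.45%; all regions 10.0% and 8.24%). The median ratio was only 1.08 and 1.06. The largest ratios were 9.79, at the start of HNRNPA3 in A549/DDP, where folds of 14.1 and 1.44 stood beside p-values of 1.86e-10 and 1e-10 in the authors' list, and 13.8, at the start of HNRNPUL1 in A549, where one peak had fold 30.6. In SF3B2, a branch-point factor, the A549/DDP peak with fold 14.7 overlapped others of folds 1.99 and 1.98 with similar p, beside 1.84 at the A549 lead peak.

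Other genes of the same pathways were counted in the same way, beside 18.9% of all genes in A549/DDP alone and 11.6% in A549 alone. Of 67 further core spliceosome components, 54 were listed, 43 in both lines, 11 in A549/DDP alone (20.4%) and 0 in A549 alone. SNRNP70, of the U1 particle, had p listed as 0 in both lists with folds 4.47 and 4.89. RBM22, of the catalytic core, BCAS2, a partner of PRPF19, and RBM8A, of the exon junction complex, led the genes of A549/DDP alone. Of 63 other splicing regulators 48 were listed, 40 in both, 6 in A549/DDP alone (12.5%) and 2, RBM47 and RBM3, in A549 alone (4.17%). YBX1 and PCBP1, which bind mRNA in the cytoplasm as well, had lead folds of 184 and 231 in A549/DDP, above every member there, and of 45 and 123 in A549, where DDX51 reached 46.7. Of 20 other RNA helicases 10 were listed, 9 in both and 1, SKIV2L2 of the nuclear exosome, in A549/DDP alone (10%).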

How the data were processed

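Libraries of immunoprecipitated and input RNA were made with a stranded kit, per the labels' protocols, and the submitters' processing notes name HISAT2 and build hg19. For the caller of the peaks, its cutoff, the scaling and the annotation, nothing is given in the sources used here. Each list was taken as made from both libraries of its line. The fold enrichment is a linear ratio and the p-value is the authors' own, both deposited per peak, and whether p was adjusted is not stated.

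Rows with the same position, strand and exon blocks were counted as 1 distinct peak (32069 in A549/DDP, 27319 in A549). Each took the highest fold, the smallest p and the joined region labels of its rows. Its fold and p can therefore come from different rows, and a region label can rest on 1 transcript. Several folds were given for 84 peaks in A549/DDP and 91 in A549. Overlapping peaks were merged into regions within a list and into sites across both. Intervals are exact binomial (95%). The overlap code was tested on simulated data. Python 3.11.15, pandas 2.3.3, numpy 2.4.6 and scipy 1.17.1 were used. All 92 symbols matched RefSeq names, 90 as current. The members, the 3 lists of other genes and the comparisons were chosen with earlier results of these data known. Named genes were, per family, up to 5 of both lines by worse percentile of smallest p and up to 4 of each line alone, every member with a 5′ UTR peak in one line alone, and up to 3 per class from the other lists; SF3B1, PRPF8, DDX6 and others marked so were named after their values were seen. One gene that this rule names is not reported here. Alternatives were fold of at least 5, p of at most 1e-10, equal numbers of strongest peaks, overlap of at least 50%, merged regions, strand ignored, current symbols, no pseudogenes or antisense genes, and no alternate contigs.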

Additional observations from a re-analysis of the deposited data

How the results depend on the processing

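Counting as kept a count within 1.5 times the reported one and a share within its 95% interval, 31 recomputed values were kept and 21 moved. Kept counts still ranged from 54 members in both lines (p of at most 1e-10) beside 74 to 35 sites in A549/DDP alone (overlap of at least 50%) beside 25. A kept count can hide a changed share, since fewer members were listed at some settings. With folds of at least 5, 15 members in A549/DDP alone beside 13 counted as kept. Their share went from 14.1% to 32.6% (all genes 18.9% to 31.0%). In A549 alone 7 beside 5 also counted as kept, from 5.43% to 15.2% (all genes 11.6% to 20.2%). The number kept therefore does not measure how stable the shares were. With folds of at least 5, members listed in both lines fell to 24 of 46 (52.2%; all genes 48.9%), shared peaks to 60% in A549/DDP and 75% in A549, and sites to 24 in both, 4 in A549/DDP alone and 6 in A549 alone, while 5′ UTR shares were 38.1% and 23.6%. With p of at most 1e-10 in the authors' lists, A549 alone held 3 of 69 members (4.35%, all genes 14.2%). Shared peaks were then 75.8% and 94.2%, the 5′ UTR share in A549 was 18.3%, and sites numbered 69, 14 and 4. For shared peaks, 5′ UTR shares and sites at changed settings, no value over all peaks or genes is given. These values therefore cannot be told apart from a shift of the whole lists. With equal numbers of strongest peaks (13659 asked for), 91.5% of A549 peaks were shared and single-line sites were 10 and 10. At that setting members gave 15.3% and 5.56% in one line alone, and all genes 16.3% and 18.9%. An overlap of at least 50% left 73.4% of A549/DDP peaks shared, and merged regions gave 74.2% and 82.4%. The cause was not tested; the first 3 settings enter fewer peaks. No paired analysis was possible because each group had 1 library. Depth is unknown, so a peak missing from a list may lie below detection.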
